A study of Homo sapiens with 6 samples.

Results

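Caveolae, clathrin-coated pits and the smaller endocytic carriers are built from a limited set of coat, scaffold and membrane-bending proteins, and 36 genes that encode them were followed here among the 33117 genes of the deposited table. They were taken by gene name: 12 genes of caveolae, the 2 flotillins, 14 genes of the clathrin coat and its adaptors, and 8 genes of membrane bending and fission. The files use older symbols for the cavins, so that CAVIN1 is listed as PTRF, CAVIN2 as SDPR, CAVIN3 as PRKCDBP and CAVIN4 as MURC. Total RNA was sequenced from WPMY-1, an immortalised stromal cell line of the normal human prostate kept in DMEM with serum. One group, shCAVIN1, had received a lentiviral short hairpin RNA against CAVIN1, and the control group, shCtrl, had received the pLKO1 plasmid without that hairpin. Both were selected with puromycin into stable cells, and each group had 3 libraries labelled as independent biological replicates. Only 1 hairpin sequence is given, and the labels call the selected cells clones without saying how many, or whether transductions were separate, so the tests measure the spread between these libraries.

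Caveolae are small flask-shaped pits of the plasma membrane. Caveolins are embedded in their membrane from the cytosolic side, cavins coat it from the cytosol, EHD ATPases sit at the neck, and PACSINs bend the membrane and help to shape that neck. Clathrin-coated pits form separately: the AP2 complex gathers cargo at the membrane, clathrin triskelia of heavy and light chains polymerise over it, accessory adaptors such as epsins and FCHO proteins help the pit to start and to curve, and dynamin cuts the neck. Flotillins mark a further class of membrane domains. Loss of CAVIN1 is known to deplete caveolae in several cell types, and the comparison asks how the transcripts of these coats stood when CAVIN1 RNA was lowered.

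The sequence used to lower CAVIN1 shows which transcript of the set was targeted. It is shown as the labels give it, and then in place in the CAVIN1 transcript with 30 bases in all, the target in capitals and written from the upstream to the downstream end.
Hairpin target: GTGGAGGTTGAGGAGGTTATT
CAVIN1 transcript: ggcgGTGGAGGTTGAGGAGGTTATTgagga
The target lay in the coding sequence, in exon 2 of 2 of ENST00000357037.5, at chr17:42405221-42405241 on the minus strand (GRCh38, GENCODE 29). CAVIN1 was the 1 gene whose GENCODE basic transcripts held all 21 bases. Among the other 35 genes the longest run shared with the target was between 7 and 11 bases, with 11 bases in FLOT2 and in PACSIN3.

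CAVIN1 stood at 134, 139 and 150 FPKM in the shCAVIN1 libraries, against 330, 347 and 330 FPKM in the shCtrl libraries. FPKM counts fragments scaled to transcript length and to the mapped fragments of the library, so levels of different genes can be set side by side. The shCAVIN1 libraries kept 42.0% of the control level, and the groups did not overlap (log2 fold change -1.25, SE 0.0586, limma adjusted p = 2.88e-05). By exact permutation of the 6 libraries between the groups, two-sided, p was 0.1, and a design of 3 against 3 cannot go lower. The log2 fold changes here are of FPKM + 0.5, shCAVIN1 over shCtrl. A gene is said to have risen or fallen where its Benjamini-Hochberg adjusted p over all tested genes was under 0.05.

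The antisense strand of such a hairpin can also pair with other transcripts through bases 2 to 8, which correspond to bases 14 to 20 of the target. That 7-base match occurred in the coding transcripts of 5 of the 35 tested genes of the set, CAVIN1 included, and in 17.7% of all tested protein-coding genes. The sites of the other 4 genes are given with 30 bases each and the match in capitals.
AP2B1, coding sequence, chromosome 17: tggaacagcctcAGGTTATcccctctcaag
DAB2, upstream untranslated part, chromosome 5: ggtgtctgtgggAGGTTATgtttatttgag
DAB2, downstream untranslated part, chromosome 5: cataaaacctaaAGGTTATagtagaacaag
FLOT2, coding sequence, chromosome 17: gactgtctctggAGGTTATgaccatcctgt
SNX18, downstream untranslated part, chromosome 5: gatactcagaaaAGGTTATtgaaataatta
Of these 4 genes, AP2B1, DAB2 and SNX18 fell and FLOT2 did not pass the test. Of the 30 tested members without the match, 7 fell and 13 rose. Over all tested protein-coding genes, 34.6% of the 2116 with the match fell and 28.2% of the 9861 without it, with median log2 fold changes of -0.07 and 0.003. Genes with the match also had longer transcripts, with a median of 5134 bases against 3091 bases without it. The part of such pairing in any of these changes was not tested.

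Of 12 mesenchymal marker genes, 11 reached a mean of 1 FPKM, while PDGFRA stayed below it. They did not move alike: vimentin (VIM) averaged 296 FPKM in shCAVIN1 and 280 FPKM in shCtrl and ACTA2 9.89 FPKM in shCAVIN1 and 4.94 FPKM in shCtrl, whereas COL1A2 averaged 9.78 FPKM in shCAVIN1 and 85.5 FPKM in shCtrl, FN1 57.8 FPKM in shCAVIN1 and 199 FPKM in shCtrl, and TAGLN 346 FPKM in shCAVIN1 and 675 FPKM in shCtrl. The prostate epithelial marker KLK3 was listed at 0 in all 6 libraries and EPCAM, CDH1, KRT5 and KRT14 had means below 0.5 FPKM in both groups, but the keratins KRT8 and KRT18 averaged 28.6 and 219 FPKM in shCAVIN1 and 23.5 and 385 FPKM in shCtrl. The summed level of the mesenchymal list was 898 to 914 FPKM in the shCAVIN1 libraries and 1466 to 1627 FPKM in the shCtrl libraries, and that of the 10 epithelial markers 245 to 260 FPKM in shCAVIN1 and 400 to 434 FPKM in shCtrl. The 6 endothelial markers summed to 1.18 to 1.34 FPKM in shCAVIN1 and 0.439 to 0.885 FPKM in shCtrl, and the 6 immune markers, nearly all through CD68, to 9.51 to 9.91 FPKM in shCAVIN1 and 6.70 to 7.29 FPKM in shCtrl. The part of these differences in the results was not tested, and in bulk RNA a change in the mix of cells cannot be told apart from less RNA per cell. FPKM sums lay between 758837 and 1043843, and RN7SK, an abundant non-coding RNA, had a value of 0 in shCtrl replicate 2 and of 106000 to 151600 FPKM in the other 5 libraries.

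In the caveolar coat, both caveolins rose while CAVIN1 was low, PACSIN2 fell, and the other cavins did not pass the test. Of the 12 genes, 4 rose and 2 fell, while 6 gave no call. Over all 13941 tested genes 55.5% were called, 27.3% as higher and 28.2% as lower, so the 6 of 12 called here lie near the share of all genes.

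CAV1, the caveolin that caveolae cannot form without in non-muscle cells, stood at 188, 186 and 187 FPKM in shCAVIN1 and at 152, 167 and 153 FPKM in shCtrl. Each shCAVIN1 library was above each shCtrl library, and CAV1 rose 1.19-fold (log2 0.25, SE 0.0510, adjusted p = 0.00655). CAV2, the partner that assembles with CAV1, stood at 34.6, 35.5 and 37.1 FPKM in shCAVIN1 and at 21.4, 27.2 and 22.8 FPKM in shCtrl, a 1.5-fold rise (log2 0.58, SE 0.0911, adjusted p = 0.00236). The genes lie next to each other on chromosome 7, and CAV2 rose more than CAV1: within a library, CAV2 was 0.191 ± 0.00715 of CAV1 in shCAVIN1 and 0.151 ± 0.0113 of it in shCtrl (SD, n = 3 each, no overlap).

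CAVIN2, a cavin that helps to shape the caveolar membrane, stood at 2.38, 2.41 and 2.30 FPKM in shCAVIN1 and at 1.95, 2.45 and 2.34 FPKM in shCtrl. CAVIN3, a cavin that binds protein kinase C delta, stood at 4.36, 5.69 and 6.54 FPKM in shCAVIN1 and at 5.86, 5.11 and 6.53 FPKM in shCtrl. CAVIN4, the cavin of muscle, stood at 0.447, 0.560 and 0.594 FPKM in shCAVIN1 and at 0.595, 0.606 and 0.597 FPKM in shCtrl. None of these 3 passed (adjusted p = 0.543 for CAVIN2, 0.673 for CAVIN3 and 0.450 for CAVIN4), and the CAVIN4 groups were apart by less than 0.01 FPKM at their nearest libraries. CAVIN1 therefore remained the most abundant cavin transcript per length in every library, including those with the hairpin.

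**Figure D1:**
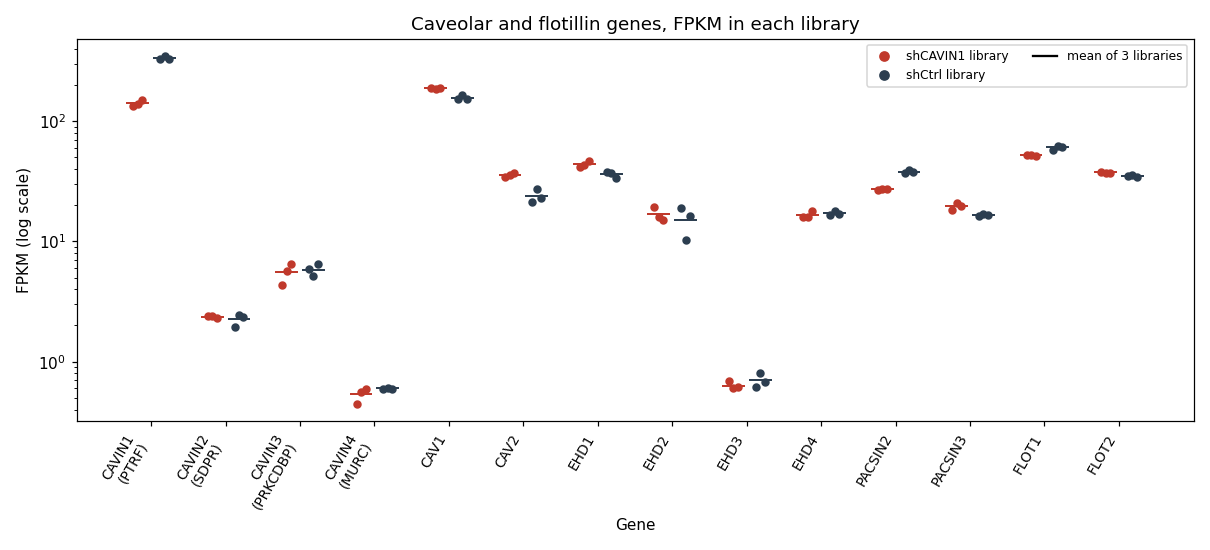
FPKM of the caveolar and flotillin genes in each library on a log scale, with 3 shCAVIN1 libraries to the left of 3 shCtrl libraries for each gene and bars at the means. CAVIN1 is lower in shCAVIN1, at 134 to 150 FPKM, while CAV1, CAV2, EHD1 and PACSIN3 are higher there, and CAVIN2, CAVIN3 and CAVIN4 lie within or close to the control range.

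Among the EHD ATPases, EHD1, which also works in endosomal recycling, stood at 41.6, 42.8 and 46.7 FPKM in shCAVIN1 and at 38.1, 37.0 and 33.7 FPKM in shCtrl (log2 0.27, SE 0.0664, adjusted p = 0.0155). Its call was lost without shCAVIN1 replicate 3 (adjusted p = 0.0506). EHD2, the member best known from the caveolar neck, did not pass (19.3, 16.1 and 15.1 FPKM in shCAVIN1 against 18.9, 10.3 and 16.4 FPKM in shCtrl), and its log2 fold change of 0.18 (SE 0.223) turned to -0.07 without shCtrl replicate 2, the low library. EHD4 averaged 16.5 ± 1.05 FPKM in shCAVIN1 and 17.2 ± 0.765 FPKM in shCtrl, and EHD3 stayed below 1 FPKM in each library, neither passing the test.

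The PACSINs parted. PACSIN2, the widely expressed F-BAR protein of caveolae, stood at 26.8, 27.4 and 27.4 FPKM in shCAVIN1 and at 36.9, 39.4 and 38.0 FPKM in shCtrl, and fell to 71.3% of control (log2 -0.48, SE 0.0400, adjusted p = 0.000198). PACSIN3, the relative found mainly in muscle, stood at 18.2, 20.8 and 19.7 FPKM in shCAVIN1 and at 16.2, 16.9 and 16.4 FPKM in shCtrl, and rose (log2 0.23, SE 0.0563, adjusted p = 0.0133). The ratio of PACSIN3 to PACSIN2 within a library was 0.719 ± 0.0390 in shCAVIN1 and 0.434 ± 0.00490 in shCtrl. In the annotation an exon of PACSIN2 overlaps one of ARFGAP3 on the same strand, and ARFGAP3 averaged 21.5 FPKM in shCAVIN1 and 24.4 FPKM in shCtrl, so fragments in the shared part are uncertain.

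Flotillins form their own membrane scaffolds, apart from caveolin and clathrin. FLOT1 fell, with 52.1, 52.2 and 51.7 FPKM in shCAVIN1 and 57.7, 62.5 and 61.3 FPKM in shCtrl (log2 -0.22, SE 0.0431, adjusted p = 0.00632). FLOT2 stood at 38.0, 37.1 and 37.3 FPKM in shCAVIN1 and at 34.8, 35.98 and 34.6 FPKM in shCtrl, groups that did not overlap but did not pass the test (log2 0.09, SE 0.0364, adjusted p = 0.0711). It passed without shCtrl replicate 2 (log2 0.11, adjusted p = 0.0163) and under median-of-ratios scaling (log2 0.10, adjusted p = 0.0411).

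In the clathrin coat, the light chains, AP2A1 and the medium and small AP2 subunits rose. The heavy chain, AP2A2, AP2B1 and most of the accessory adaptors that were called fell. Of the 14 genes, 6 rose, 6 fell and 2 did not pass, so 12 of 14 were called against 55.5% of all tested genes. The calls of CLTC, AP2B1, AP2S1 and AP2A1 depended on single libraries, as given below. After rescaling to TPM, only CLTA, CLTB, AP2M1, FCHO2 and DAB2 of the 14 stayed called, and 3412 of all tested genes against 7734. The median log2 fold change of the 14 genes was -0.02, equal to that of all tested genes at this precision.

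CLTB, a clathrin light chain, had the largest rise of the set: 126, 136 and 141 FPKM in shCAVIN1 against 70.1, 77.2 and 72.8 FPKM in shCtrl (1.83-fold, log2 0.87, SE 0.0608, adjusted p = 0.00011). CLTA, the other light chain, rose 1.43-fold, with 184, 196 and 200 FPKM in shCAVIN1 and 126, 151 and 129 FPKM in shCtrl (log2 0.52, SE 0.0814, adjusted p = 0.00241). CLTC, the heavy chain that forms the legs of the triskelion, stood at 87.3, 80.3 and 78.9 FPKM in shCAVIN1 and at 107, 89.4 and 100 FPKM in shCtrl (log2 -0.26, SE 0.0783, adjusted p = 0.0291). The heavy-chain libraries did not overlap, but shCAVIN1 replicate 1 and shCtrl replicate 2 lay only about 2 FPKM apart, and the call was lost without any of shCAVIN1 replicates 2 and 3 and shCtrl replicates 1 and 3 (log2 -0.25, -0.24, -0.21 and -0.25, adjusted p between 0.0694 and 0.0965).

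Within a library, the summed light chains were 3.55, 4.13 and 4.32 times the heavy chain in shCAVIN1 and 1.83, 2.55 and 2.01 times in shCtrl, on the FPKM scale. This sum was chosen after the values were seen and was not tested. The light chains also shifted against each other, with CLTB at 0.696 ± 0.00924 of CLTA in shCAVIN1 and 0.545 ± 0.0287 of it in shCtrl. The 3 clathrin chains together summed to 410 ± 11.5 FPKM in shCAVIN1 and 307 ± 8.74 FPKM in shCtrl.

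AP2 is made of an alpha chain (AP2A1 or AP2A2), beta (AP2B1), mu (AP2M1) and sigma (AP2S1). AP2M1, which recognises tyrosine-based sorting signals in cargo, was the most abundant transcript of the set per length in shCAVIN1 and rose 1.66-fold, with 559, 552 and 538 FPKM in shCAVIN1 and 317, 340 and 339 FPKM in shCtrl (log2 0.73, SE 0.0544, adjusted p = 0.000137). AP2S1, the small subunit of the core, stood at 154, 151 and 157 FPKM in shCAVIN1 and at 112, 142 and 118 FPKM in shCtrl (log2 0.32, SE 0.0918, adjusted p = 0.0255). Its groups did not overlap, but the call was lost without any library other than shCtrl replicate 2, at log2 fold changes of 0.25 to 0.33 (adjusted p between 0.0606 and 0.0861).

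The alternative alpha chains moved in opposite directions. AP2A1 stood at 25.3, 24.2 and 25.4 FPKM in shCAVIN1 and at 22.7, 20.1 and 20.9 FPKM in shCtrl (log2 0.23, SE 0.0552, adjusted p = 0.0131), a call lost without shCAVIN1 replicate 3 (log2 0.22, adjusted p = 0.0514). AP2A2 stood at 14.7, 15.1 and 14.5 FPKM in shCAVIN1 and at 20.1, 18.6 and 18.3 FPKM in shCtrl (log2 -0.35, SE 0.0488, adjusted p = 0.00147). The ratio of AP2A2 to AP2A1 was 0.592 ± 0.0297 in shCAVIN1 and 0.895 ± 0.0250 in shCtrl, with no overlap. AP2B1, the beta chain that binds clathrin, stood at 36.8, 31.2 and 29.1 FPKM in shCAVIN1 and at 45.8, 36.1 and 42.4 FPKM in shCtrl. Its groups overlapped at 1 library each, and its call (log2 -0.35, SE 0.117, adjusted p = 0.043) was lost without any of shCAVIN1 replicates 2 and 3 and shCtrl replicates 1 and 3 (log2 -0.33, -0.28, -0.28 and -0.33). AP2B1 was also not called with no filter (adjusted p = 0.0669), under median-of-ratios scaling (0.0506), quantile normalization (0.054) or protein-coding sum scaling (0.0896), and CLTC not under quantile normalization (0.0533) or protein-coding sum scaling (0.0885). Within the control group, shCtrl replicate 2 had the highest CLTA, CLTB, CAV2 and AP2S1 and the lowest CLTC, AP2B1, DNM1 and EHD2.

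**Figure D2:**
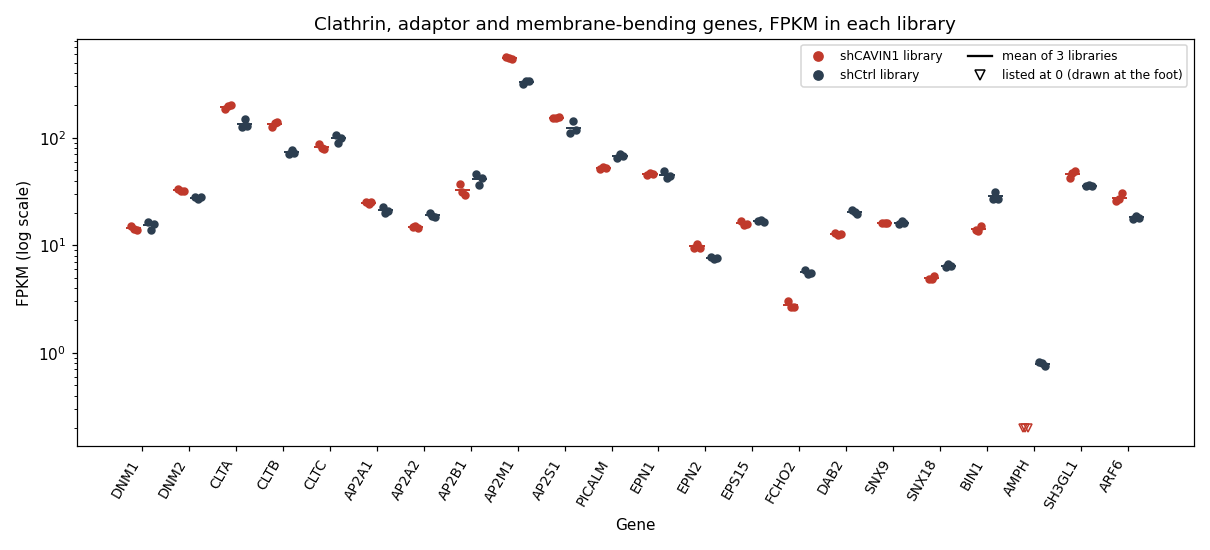
FPKM of the clathrin, adaptor, dynamin and membrane-bending genes in each library on a log scale, with 3 shCAVIN1 libraries to the left of 3 shCtrl libraries and bars at the means. AP2M1, CLTA and CLTB are higher in shCAVIN1, FCHO2, DAB2 and BIN1 are lower there, and AMPH is listed at 0 in all 3 shCAVIN1 libraries.

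The accessory adaptors contained the largest falls of the clathrin group. FCHO2, an F-BAR protein that acts early in pit formation, stood at 3.03, 2.66 and 2.64 FPKM in shCAVIN1 and at 5.85, 5.40 and 5.57 FPKM in shCtrl, 49.6% of control (log2 -0.90, SE 0.0666, adjusted p = 0.000132). DAB2, a cargo adaptor for receptors of the LDL receptor family and for integrins, stood at 12.97, 12.4 and 12.8 FPKM in shCAVIN1 and at 21.3, 20.4 and 19.6 FPKM in shCtrl (log2 -0.66, SE 0.0461, adjusted p = 0.000107). PICALM, which controls pit size and sorts vesicle SNAREs, stood at 51.6, 53.0 and 52.1 FPKM in shCAVIN1 and at 64.8, 69.8 and 67.2 FPKM in shCtrl (log2 -0.36, SE 0.0423, adjusted p = 0.000729). In each of these 3 genes the groups were clearly separate. EPN2, an epsin that bends membrane and binds ubiquitin, went the other way, with 9.35, 10.4 and 9.50 FPKM in shCAVIN1 and 7.79, 7.41 and 7.69 FPKM in shCtrl (log2 0.33, SE 0.0533, adjusted p = 0.00264). EPN1 (46.1 ± 1.03 FPKM in shCAVIN1 and 44.8 ± 3.38 FPKM in shCtrl) and the scaffold EPS15 (16.0 ± 0.615 FPKM in shCAVIN1 and 16.9 ± 0.417 FPKM in shCtrl) did not pass.

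Among the genes of membrane bending and fission, 3 of 7 tested rose and 2 fell, beside 27.3% and 28.2% of all tested genes. BIN1, or amphiphysin II, an N-BAR protein that tubulates membrane, stood at 13.9, 13.5 and 15.0 FPKM in shCAVIN1 and at 26.8, 31.4 and 27.2 FPKM in shCtrl, 49.7% of control (log2 -0.98, SE 0.0752, adjusted p = 0.000148). After CAVIN1 itself this was the largest fall of the tested members. Its paralog AMPH, amphiphysin I, best known from nerve terminals, had a listed value of 0 in every shCAVIN1 library, against 0.820, 0.796 and 0.759 FPKM in shCtrl.

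AMPH was the member left out by the filter, which asked for a mean of 0.5 FPKM over the 6 libraries. With no filter its adjusted p was 2.7e-05. An exact 0 in this table can be a failed estimate, so no fold is given. Of the 1231 rows with a control mean of 0.5 to 1 FPKM, 15 (1.22%), AMPH included, were listed at 0 in all 3 shCAVIN1 libraries. The 22 tested genes whose starts lie within 5 Mb of AMPH on chromosome 7 had a median log2 fold change of -0.14. They ran from -2.46 in EPDR1 to 0.35 in C7orf25. The nearest of them on either side of AMPH, STARD3NL and VPS41, fell (log2 -0.48 and -0.65, limma adjusted p = 0.00163 and 0.000174). Any link between these shifts and the AMPH values was not tested.

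SNX18, a PX-BAR sorting nexin that recruits dynamin, stood at 4.86, 4.90 and 5.16 FPKM in shCAVIN1 and at 6.31, 6.71 and 6.37 FPKM in shCtrl (log2 -0.35, SE 0.0488, adjusted p = 0.00151). Its paralog SNX9, which acts at the same late step, stood at 16.3, 16.1 and 16.0 FPKM in shCAVIN1 and at 15.8, 16.8 and 16.0 FPKM in shCtrl, with a log2 fold change of -0.004 (SE 0.0398), the smallest of the set. SH3GL1, or endophilin A2, stood at 42.4, 47.1 and 49.1 FPKM in shCAVIN1 and at 35.4, 36.4 and 35.3 FPKM in shCtrl (log2 0.36, SE 0.0612, adjusted p = 0.00318).

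The dynamins are the GTPases that cut vesicle necks. DNM2, the ubiquitous one, rose, with 33.4, 32.2 and 31.7 FPKM in shCAVIN1 and 28.3, 26.7 and 28.2 FPKM in shCtrl (log2 0.22, SE 0.0423, adjusted p = 0.00523). DNM1, known chiefly from neurons, averaged 14.5 ± 0.642 FPKM in shCAVIN1 and 15.4 ± 1.29 FPKM in shCtrl and did not pass, except without shCtrl replicate 2 (log2 -0.15, adjusted p = 0.0491). ARF6, the small GTPase that drives PIP2 synthesis and recycling at the plasma membrane, stood at 25.6, 27.2 and 30.3 FPKM in shCAVIN1 and at 17.7, 18.8 and 18.04 FPKM in shCtrl, a 1.52-fold rise without overlap (log2 0.59, SE 0.0682, adjusted p = 0.00069).

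Over the whole set, 24 of 35 tested genes were called (13 rose and 11 fell), 68.6% against 55.5% of all tested genes. In 25 of 35 the shCAVIN1 and shCtrl values were fully separate, as in 64.6% of all tested genes. The median log2 fold change was -0.004, against -0.02 over all tested genes. Of the 24 changes, 7 reached 1.5-fold on the log2(FPKM + 0.5) scale, as did 2510 of the 7734 over all tested genes. Most calls, in the set as among all tested genes, were therefore for shifts smaller than 1.5-fold.

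**Figure D3:**
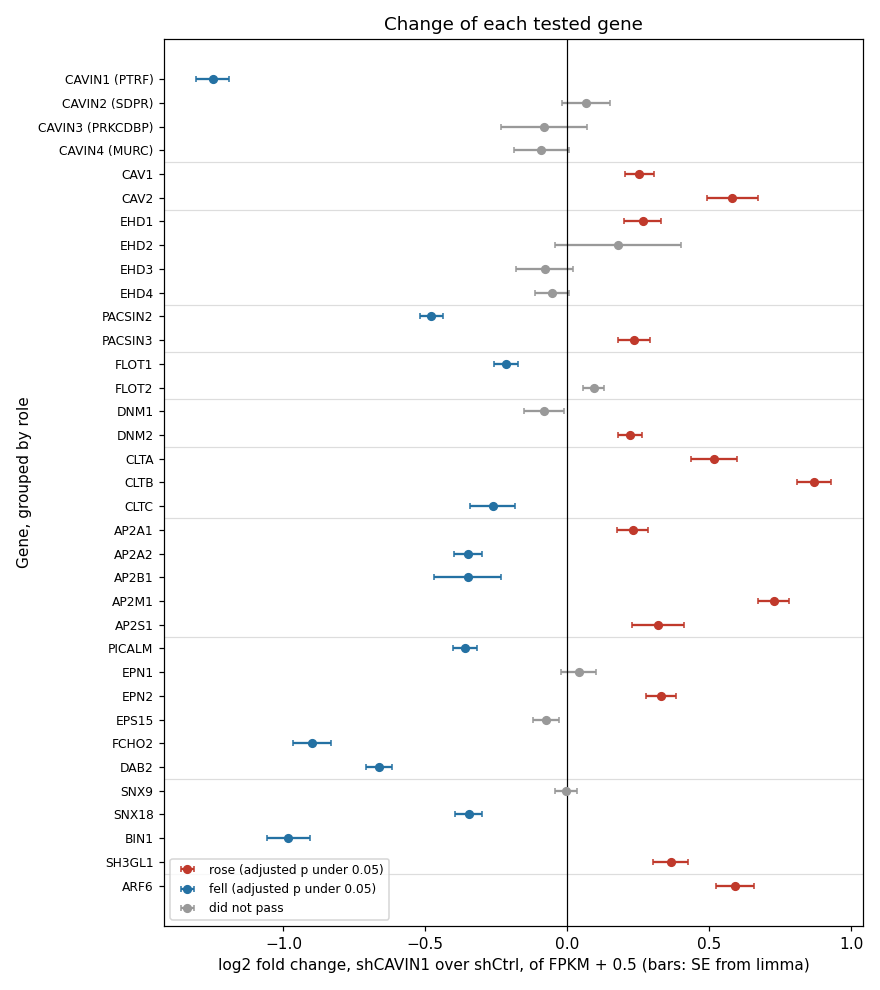
Log2 fold change of FPKM + 0.5, shCAVIN1 over shCtrl, with the standard error from limma for the 35 tested genes, grouped by role, red for genes that rose, blue for genes that fell and grey for those that did not pass. Both directions occur within the PACSINs, the clathrin chains and the AP2 subunits, and CAVIN1 at -1.25, BIN1 at -0.98 and FCHO2 at -0.90 are the lowest.

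Rescaling each library to TPM ended 15 of the 24 calls. The log2 fold changes of genes that had risen were then larger, as for CAV1 (0.38), EHD1 (0.39) and SH3GL1 (0.49), and those of genes that had fallen were smaller in size, as for PACSIN2 (-0.36) and AP2A2 (-0.23). The TPM scale is set by the FPKM sum of a library, which was lowest in shCtrl replicate 2, where RN7SK has no value above 0. The remaining calls were CAVIN1, FCHO2, DAB2 and BIN1 as lower and CAV2, CLTA, CLTB, AP2M1 and ARF6 as higher. A ratio of 2 genes within a library does not depend on that scale, and 13 such pairs were compared. In all 13, the shCAVIN1 and shCtrl libraries did not overlap. For single genes this was so in 64.6%, but a ratio is another measure, and the share among ratios of other gene pairs was not computed. Each of the 13 pairs holds a gene called in these same data, and several share CAV1, so their count adds no separate support. Of these pairs 2 contain CAVIN1, the target of the hairpin. For each pair the two-sided exact permutation p was 0.1, the floor of this design, and 0.1 after Benjamini-Hochberg adjustment over the 13 pairs, so none could pass 0.05.

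The ratios that contain CAVIN1 differed most among the 13, by log2 -1.51 against CAV1 and -1.44 against EHD2, while the other 11 differed by 0.31 to 0.74 in size. CAVIN1 was 0.713, 0.744 and 0.802 times CAV1 in shCAVIN1 libraries and 2.175, 2.08 and 2.16 times CAV1 in shCtrl libraries, so that CAVIN1 was the more abundant of them per length in shCtrl and CAV1 in shCAVIN1. PACSIN2 was 0.145 ± 0.00236 of CAV1 in shCAVIN1 and 0.243 ± 0.00595 in shCtrl. Between coats, CAV1 was 2.28 ± 0.117 times CLTC in shCAVIN1 and 1.60 ± 0.232 times CLTC in shCtrl. Among paralogs, SNX18 was 0.308 ± 0.0124 of SNX9 in shCAVIN1 and 0.399 ± 0.00193 of it in shCtrl, DNM1 was 0.446 ± 0.0078 of DNM2 in shCAVIN1 and 0.554 ± 0.0302 in shCtrl, and FLOT2 was 0.721 ± 0.00907 of FLOT1 in shCAVIN1 and 0.581 ± 0.0195 in shCtrl. AP2M1 was 15.2, 17.7 and 18.5 times AP2B1 in shCAVIN1 and 6.92, 9.42 and 8.0 times AP2B1 in shCtrl, a pair chosen after the values were seen and not tested.

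**Figure D4:**
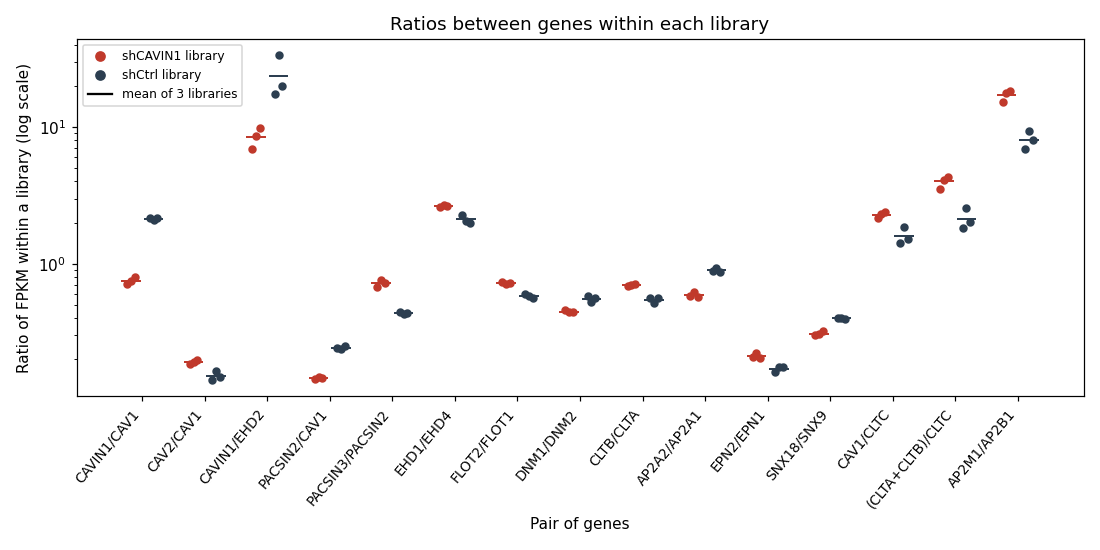
Ratios of FPKM between pairs of genes within each library on a log scale, with 3 shCAVIN1 libraries to the left of 3 shCtrl libraries and bars at the means. The ratio of CAVIN1 to CAV1 is below 1 in each shCAVIN1 library and above 2 in each shCtrl library, and the summed light chains over the heavy chain lie at 3.55 or more in shCAVIN1 and at 2.55 or less in shCtrl.

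Summed over the 12 caveolar genes, the level was 497 ± 13.1 FPKM in shCAVIN1 and 649 ± 19.2 FPKM in shCtrl, the difference being smaller than that of CAVIN1 alone (141 and 336 FPKM). Over the 14 clathrin coat genes it was 1325 ± 1.82 FPKM in shCAVIN1 and 1008 ± 26.3 FPKM in shCtrl, with AP2M1 the largest part. These sums follow the most abundant genes and were not tested.

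Most of the called genes had the same sign of change as the genes around them on the chromosome. For each gene, the median log2 fold change of the other tested genes within 5 Mb on each side was taken as its regional median. All 11 genes that fell lay in regions with a negative median, and 8 of the 13 that rose in regions with a positive one. Over all called genes with a regional median, 74.9% had the sign of their region, a share not split by direction. The regional medians of the genes that fell ran from -0.59 (PICALM) to -0.02 (FLOT1). Over all tested genes with one, the regional medians themselves had a median of -0.03, so a slightly negative region was common.

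DAB2, SNX18 and FCHO2 lie on chromosome 5, where the regional medians were -0.35, -0.34 and -0.37, while CLTB, near the end of the long arm of that chromosome, had a regional median of 0.24. On chromosome 11, PICALM had a regional median of -0.59 (25 genes), CAVIN3 of -0.60 (75 genes) and AP2A2 of -0.35 (66 genes). BIN1 on chromosome 2 lay in a region at -0.44 (24 genes) and CLTA on chromosome 9 in one at 0.30 (78 genes). DNM2 and SH3GL1 on chromosome 19 stood in regions at 0.23 and 0.24, and PACSIN3 on chromosome 11 in one at 0.23. Other genes rose against the sign of their region. They were EHD1 (regional median -0.29, 204 genes), CAV1 and CAV2 (both -0.14, 21 genes), AP2A1 (-0.04) and AP2S1 (-0.006).

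With the regional median subtracted, an alternative chosen after seeing the data, AP2A2 (log2 0.002), SNX18 (-0.007), DNM2 (-0.005), PACSIN3 (0.000), SH3GL1 (0.13), CLTA (0.22), CLTC (-0.08) and AP2B1 (-0.23) were no longer called. PICALM turned to a log2 fold change of 0.23 (adjusted p = 0.00639), since it had fallen by less than the median of its neighbours. CAVIN3, EHD4, CAVIN2 and FLOT2, uncalled before, passed with positive log2 fold changes after the subtraction, and EPS15 with a negative value. The median was subtracted as a fixed value, so these adjusted p leave out the spread among the neighbours. They do not test a gene against its neighbours. CAVIN1 (-1.18), BIN1 (-0.55), FCHO2 (-0.53), DAB2 (-0.31), CLTB (0.63), AP2M1 (0.58), CAV2 (0.72) and ARF6 (0.45) were among the genes that kept their calls. The cause of the regional shifts was not tested.

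**Figure D5:**
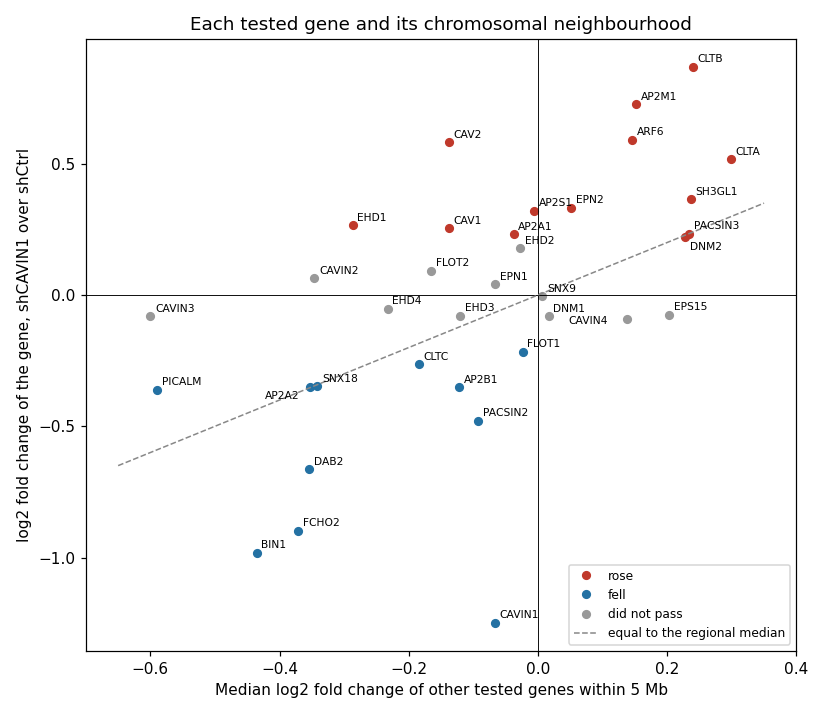
Log2 fold change of each of the 35 tested genes, shCAVIN1 over shCtrl, against the median log2 fold change of the other tested genes within 5 Mb, coloured by call, with a dashed line where both are equal. AP2A2, SNX18, DNM2 and PACSIN3 lie on the line, CAVIN1 lies far below it at a regional median of -0.07, and CLTB, AP2M1 and CAV2 lie above it.

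Transcript length and base composition were weakly related to the changes. Their Spearman correlations with the log2 fold change were -0.126 and 0.127 over tested protein-coding genes. The 13 genes that rose had a median transcript length of 3201 bases (935 to 4871) and 59.1% GC. The 11 that fell had 4537 bases (1912 to 8587) and 46.6% GC, and the 11 not called 4198 bases and 52.95% GC. Over all 11984 tested protein-coding genes with a length, the median log2 fold change was 0.06 in the shortest 20% and -0.09 in the longest 20%, and -0.07 in the 20% with the least GC and 0.08 in the 20% with the most. With the trend on length removed, the log2 fold change of CLTC was -0.16, that of CLTB 0.80 and that of AP2M1 0.69, all 3 still called, and EPN1 passed (0.21, adjusted p = 0.0323). The transcript used for EPN1 was the longest of the tested members, at 16219 bases, and no other choice of transcript was tried. With the trend on GC removed, CLTC (-0.22, adjusted p = 0.0748) and AP2B1 (-0.32, adjusted p = 0.0547) were not called. Both trends were chosen after seeing the data, and what produced them was not tested.

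The upstream sequence of the genes with the largest rises (CLTB, AP2M1) and, CAVIN1 aside, the largest falls (BIN1, FCHO2) is shown so that the genes that moved most can be compared. Each is the 250 bases before the gene's start from RefSeq (GRCh38.p14), with matches to the motifs searched in capitals. The motifs, searched on both strands, were the GC box, CCAAT box, cAMP response element, E-box, ETS and TATA letters spelled out after the sequences, and matches that overlap run together.
CLTB, chr5:176416570-176416819, minus strand: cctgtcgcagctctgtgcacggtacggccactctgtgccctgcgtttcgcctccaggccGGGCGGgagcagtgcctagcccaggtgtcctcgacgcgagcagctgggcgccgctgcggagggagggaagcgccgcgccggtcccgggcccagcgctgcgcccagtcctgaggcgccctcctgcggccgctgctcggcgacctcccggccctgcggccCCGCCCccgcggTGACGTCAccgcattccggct
AP2M1, chr3:184174605-184174854, plus strand: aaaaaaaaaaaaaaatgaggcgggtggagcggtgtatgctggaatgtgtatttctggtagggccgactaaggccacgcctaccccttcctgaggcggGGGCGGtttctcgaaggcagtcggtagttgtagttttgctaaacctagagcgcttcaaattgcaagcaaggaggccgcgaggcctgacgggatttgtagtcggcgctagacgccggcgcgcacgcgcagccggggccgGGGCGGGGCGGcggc
BIN1, chr2:127107155-127107404, minus strand: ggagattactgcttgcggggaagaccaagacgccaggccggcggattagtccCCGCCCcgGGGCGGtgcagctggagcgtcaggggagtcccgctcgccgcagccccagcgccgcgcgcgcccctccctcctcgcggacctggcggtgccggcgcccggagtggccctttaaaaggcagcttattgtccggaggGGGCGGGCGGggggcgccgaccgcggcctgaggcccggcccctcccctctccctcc
FCHO2, chr5:72955791-72956040, plus strand: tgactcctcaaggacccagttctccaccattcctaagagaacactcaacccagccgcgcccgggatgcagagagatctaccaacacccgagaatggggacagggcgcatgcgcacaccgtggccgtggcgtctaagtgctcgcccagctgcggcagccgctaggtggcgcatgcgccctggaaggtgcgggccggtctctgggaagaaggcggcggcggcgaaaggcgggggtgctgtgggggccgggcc
The GC box letters GGGCGG were found in CLTB, AP2M1 and BIN1, the cAMP response element TGACGTCA in CLTB, and none of the motifs in FCHO2. A sequence was matched for 33 of the 36 genes, those of CAVIN1, CAVIN3 and PACSIN3 not being used here. GGGCGG occurred in 24 of the 33, and in 42.3% of the 27305 such windows in the table. It occurred in 9 of the 12 windows of genes that rose and in 7 of the 10 of genes that fell. The CCAAT box occurred in 7 of the 33, against 33.0% of all windows, with 5 of the 12 that rose and 1 of the 10 that fell. The E-box CACGTG occurred in 1 of the 33 (6.49% of all windows), the ETS letters CCGGAAG in 4 (8.82%) and the TATA letters TATAAA in 1 (11.1%). TGACGTCA occurred in 2 (1.77%), CLTB, which rose, and AP2B1, which fell. These matches describe the letters only, and the 27305 windows were not limited to tested or protein-coding genes. Shares over genes like the 33 were not computed.

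Other genes of the same pathways changed in both directions: of 148 tested genes in 9 lists of related proteins, 49 rose and 43 fell, 62.2% called against 55.5% of all tested genes (27.3% rose and 28.2% fell), shares to set beside each list's counts. In the list of other clathrin accessory proteins 8 of 24 rose and 7 fell. The adaptor STON2 (stonin 2) fell to 0.125 ± 0.0338 FPKM in shCAVIN1, against 1.82 ± 0.209 FPKM in shCtrl. The endocytic adaptor NUMB and the uncoating factor DNAJC6 rose 1.42-fold and 1.57-fold.

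Of 14 tested genes for other dynamins and membrane-bending proteins, 5 rose and 6 fell. SH3GL3, endophilin A3, fell to 3.83 ± 0.0981 FPKM in shCAVIN1, against 10.8 ± 0.684 FPKM in shCtrl, the opposite direction to its paralog SH3GL1. SH3GLB1 (endophilin B1) and BAIAP2, an I-BAR protein, rose 1.49-fold and 1.89-fold, and FNBP1L, an F-BAR protein, fell to 56.0% of control. Among 11 phosphoinositide enzymes, 3 rose and 6 fell: PIP5K1A, which makes PIP2, the lipid that AP2 binds, rose to 60.5 ± 1.05 FPKM in shCAVIN1, against 32.5 ± 0.972 FPKM in shCtrl, and the inositol phosphatases INPPL1, OCRL and INPP5B fell to 74.9%, 78.4% and 78.1% of control.

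Of 25 subunits of other adaptor complexes, 11 rose and 6 fell. AP1M2, the epithelial mu chain of AP1, stood at 3.20 ± 0.422 FPKM in shCAVIN1 and 0.497 ± 0.112 FPKM in shCtrl, and AP1G1, the gamma chain of AP1, fell to 67.5% of control. Stomatin (STOM), which shares a domain with the flotillins, rose 1.56-fold, and 2 of the 7 tested genes of its list rose, STOML2 of the mitochondrion being the other, at 1.41-fold. Of 21 ARF GTPases and regulators 7 rose and 7 fell, with ARF1 1.35-fold higher and the GTPase-activating protein ARAP1 at 57.6% of control. Of 25 early and recycling endosome genes 8 rose and 6 fell, with the retromer subunits VPS29 and VPS35 moving apart, at 145% and 74.5% of control.

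Of 12 cargo receptors 4 rose and 3 fell. The transferrin receptor TFRC, the classical cargo of clathrin-coated pits, rose to 55.2 ± 2.63 FPKM in shCAVIN1, against 34.7 ± 1.67 FPKM in shCtrl, and the collagen receptor MRC2 fell to 59.6% of control. In the list of other caveolar proteins and partners 1 of 9 rose and 2 fell. ROR1, a receptor tyrosine kinase-like protein, rose to 1.60 ± 0.124 FPKM in shCAVIN1, against 0.599 ± 0.125 FPKM in shCtrl, and EHBP1 and its relative EHBP1L1 fell to 68.6% and 82.8% of control.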

How the data were processed

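RNA sequencing libraries of 3 shCAVIN1 and 3 shCtrl replicates were compared through the FPKM values of the authors' deposited table. The submitters' processing notes name GRCh38 as the build and, as tools, TopHat2 (given as 2.2.5), TopHat, CASAVA and bcl2fastq 2.17.1.14. Not given in the sources used here are the program that computed the FPKM, its annotation and its strand setting. The labels' protocols name a stranded total RNA kit. Without the strand setting, genes with an exon overlapping another on the opposite strand (DNM1, DNM2, CLTC, AP2A1, AP2B1 and EPN1 among genes whose partner is in the table) are uncertain. Depth is unknown, so no counting error can be given.

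Genes with a mean of at least 0.5 FPKM (13941) were tested as log2(FPKM + 0.5) by limma 3.58.1, run in R 4.3.3 (group as the term, variance trend, Benjamini-Hochberg adjustment, threshold 0.05). The method was tested on simulated data with independent noise and few changed genes. In the data 55.5% of tested genes were called, so the simulation does not cover calls under such wide change. Fold and percent of control are ratios of mean FPKM. Positions, lengths and GC came from GENCODE 29, matched for 23810 of 33117 rows, and lengths for 92.7% of tested genes. The longest coding transcript was used. Replicate numbers did not pair the libraries. All 36 members are named, with up to 4 genes of each related list by lowest adjusted p (mean of at least 1 FPKM in the higher group), of which the text gives a part and 1 is not reported here. The members and lists were chosen with earlier results of these data known. Alternatives were other pseudocounts, filters, scalings, variances, a replicate block and each library left out, and, added later, protein-coding sum scaling and the length, GC and regional corrections.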

Additional observations from a re-analysis of the deposited data

How the results depend on the processing

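CAVIN1 kept its direction and call under all 19 alternatives (log2 -1.32 to -1.13). Of the 24 called members, 8 kept their call under all 19 and 9 under the 15 that leave out the 4 scalings and corrections chosen after seeing the data. The number that rose (13) was 5 and the number that fell (11) was 4 after rescaling to TPM, where 3412 genes in all were called against 7734 and 64.4% of calls were higher against 49.2%, the median of all tested genes being 0.09 against -0.02. With the regional median subtracted, 7 members fell. With 1 library left out, 10 to 14 members rose, 9 to 12 fell, and 6218 to 8468 genes were called. With the replicate block, 12 rose and 11 fell, EHD1 (adjusted p = 0.0502) being the call lost, and 7167 genes in all were called. Same-numbered libraries deviated together at r of 0.0936, 0.0714 and -0.0282, so the numbers were not taken as pairs.

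Under those 15, no called member turned its sign. Under TPM, CAVIN3 (0.032), EHD4 (0.066), DNM1 (0.038), EPS15 (0.044) and SNX9 (0.115), none called, turned positive. Leaving out 1 library gave ranges that crossed 0 for CAVIN2 (-0.015 to 0.118), CAVIN3 (-0.201 to 0.066), EHD2 (-0.070 to 0.352), EPN1 (-0.004 to 0.099) and SNX9 (-0.023 to 0.021). SNX9 also turned under median-of-ratios (0.006), quantile (0.014), protein-coding sum (0.006), length (0.010) and GC (0.021) settings, EPN1 under quantile normalization (-0.007), EHD4 with the length trend removed (0.015) and EPS15 with the GC trend removed (0.006). With the regional median subtracted, CAVIN3 (0.519), EHD3 (0.042), EHD4 (0.179), DNM2 (-0.005), AP2A2 (0.002) and PICALM (0.228) turned. The depth behind low values such as AMPH, CAVIN4 and EHD3 is unknown.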
